A study of Homo sapiens with 18 samples.

Results

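Transcripts of 10 alpha- and beta-tubulin isotypes in NCI-H295R cells, a steroid-producing human adrenocortical carcinoma line, were followed across 6 groups of RNA sequencing libraries. The genes, TUBA1A, TUBA1B, TUBA1C, TUBB, TUBB2A, TUBB2B, TUBB3, TUBB4A, TUBB4B and TUBB6, were selected by symbol and are 10 of the 58870 genes in the count table, and all 10 were among the 15787 genes with enough counts to be tested. They were picked by name with the results of these same treatments known and with no threshold on a value, so the fold changes and calls given for them describe where each gene stands in a fit over all genes and support nothing beyond that. Treatments lasted 48 h with 20 nM given as the dose. The agents were STA9090, also called ganetespib, which blocks the chaperone HSP90; PIK75, which blocks PI3K; and BGT226, which blocks PI3K and mTOR. The other groups received STA9090+PIK75, STA9090+BGT226 or no drug. Each group had 3 biological replicates, 18 libraries in all. All groups are the same established line, the dose of each agent inside a combination and any vehicle given to the untreated cells are not stated in the sources used here, and in bulk libraries a lower level in every cell and fewer cells holding the transcript cannot be told apart.

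Microtubules are polymers of alpha- and beta-tubulin heterodimers. Humans carry several genes for each, whose proteins are nearly alike in the body and differ mainly in the acidic tail at the carboxyl end, where enzymes add or remove glutamates, glycines and a tyrosine and where motors and associated proteins bind. New tubulin is folded by prefoldin and the chaperonin CCT and joined into dimers by the tubulin folding cofactors. Cells also set tubulin levels through their mRNAs. When free dimers are abundant, TTC5 recognises the first residues of a tubulin as it leaves the ribosome and, through SCAPER and the CCR4-NOT deadenylase, the mRNA being translated is degraded. TUBA1B, TUBA1C, TUBB and TUBB4B are broadly expressed isotypes, while TUBA1A, TUBB2A, TUBB2B, TUBB3 and TUBB4A are best known from neurons and glia, and TUBB6 is a divergent, more weakly expressed isotype.

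The start and the end of the coding sequence show what the members share and where they part. The first 12 coding bases, the stretch that the autoregulation machinery reads as 4 amino acids, were the same in TUBA1A, TUBA1B and TUBA1C and encoded MREC. In the 7 beta genes they came in 5 spellings that all encoded MREI. Bases are from GENCODE 29 on hg38, and the capitals mark the whole start.
TUBA1A, TUBA1B and TUBA1C: ATGCGTGAGTGC
TUBB and TUBB4B: ATGAGGGAAATC
TUBB3 and TUBB6: ATGAGGGAGATC
TUBB2A: ATGCGCGAGATC
TUBB4A: ATGCGGGAGATC
TUBB2B: ATGCGTGAGATC

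The last 60 coding bases encode the tail, where most of the isotypes differ. They are shown for 6 beta members, those whose levels differed most between treatments and the most abundant ones, with the stop codon in capitals. TUBA1A and TUBA1B, not shown, matched at 60 of 60 bases. TUBB2A and TUBB2B matched at 59 of 60 bases. Counted back from the stop codon with no gap, TUBB4A matched TUBB4B at 48 of 60 bases, TUBB at 41 and TUBB3 at 27.
TUBB: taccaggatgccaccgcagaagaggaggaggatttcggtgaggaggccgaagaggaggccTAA
TUBB4B: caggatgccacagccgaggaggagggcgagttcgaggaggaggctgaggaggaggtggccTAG
TUBB4A: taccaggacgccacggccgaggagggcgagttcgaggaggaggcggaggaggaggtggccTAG
TUBB2A: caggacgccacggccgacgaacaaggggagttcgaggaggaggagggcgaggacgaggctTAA
TUBB2B: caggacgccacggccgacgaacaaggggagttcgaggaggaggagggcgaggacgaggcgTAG
TUBB3: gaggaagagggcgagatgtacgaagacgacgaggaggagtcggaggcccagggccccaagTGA

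The likeness of the genes limits how well counts can be assigned. Over the whole coding sequence TUBA1A was 97.2% identical to TUBA1B and 95.9% to TUBA1C, and TUBB2A was 98.1% identical to TUBB2B, whereas TUBB4A was 90.1% identical to TUBB2A, 87.3% to TUBB4B and 83.9% to TUBB. Of the windows of 101 bases, the read length, along the principal transcript, none of TUBB4A or TUBB6 and 2.8% of TUBB4B and 5.02% of TUBB occur in a transcript of another gene. The share was 18.1% for TUBA1A, 36.7% for TUBA1B and 11.4% for TUBA1C, mostly with each other, 56.2% for TUBB2A and 46.1% for TUBB2B, mostly with each other, and 89% for TUBB3, nearly all with AC092143.1, an annotated read-through of MC1R and TUBB3 on the same strand. TUBA1A, TUBA1B, TUBA1C, TUBB, TUBB2B, TUBB4A, TUBB4B and TUBB6 also overlap exons of a gene on the opposite strand, and whether the counting used strand is not given in the sources used here. Values of the TUBA1 and TUBB2 groups are therefore also given for the summed near copies where that changes a call.

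Library totals ran from 10.2 to 21.1 M expected counts, of which 28.6 to 40.4% lay in RN7SL1, RN7SL2, RN7SK and RPPH1, transcripts of RNA polymerase III, and 0.27 to 0.516% in the 10 members. All 12 adrenocortical markers listed were tested, and their summed level ran from 1468 to 4443 CPM (counts per 1 M counts of a library) over the 18 libraries, while of 14 markers of other cell types 4 had enough counts, 3 were at 0 in every library and the sum ran from 2.87 to 13.35 CPM. The adrenocortical sum averaged 3822 ± 55.5 CPM with STA9090, 2467 ± 117 with PIK75, 3348 ± 75.5 with BGT226, 1619 ± 135 with STA9090+PIK75 and 3739 ± 27.1 with STA9090+BGT226, against 4131 ± 311 in untreated cells (SD, n = 3). Against untreated cells PIK75 called 10 of the 12 lower, BGT226 5 lower and 4 higher, STA9090+PIK75 all 12 lower and STA9090+BGT226 6 lower and 4 higher, with CYP17A1, the 17-hydroxylase of steroid synthesis, at -1.65, -1.34, -2.30 and -0.82 on the log2 scale. Over all genes PIK75 called 10.2% lower, BGT226 15.7% lower and 12.8% higher, STA9090+PIK75 20.1% lower and STA9090+BGT226 20.4% lower and 19.4% higher. The part of this marker change in the tubulin results was not tested. Of the 4 tested markers of other cell types, STA9090+PIK75 called COL1A1, a collagen of mesenchymal cells, lower (-3.50) and CD14, a monocyte marker, higher (1.16), with a median of 0.41 over the 4. COL1A1 was also lower with PIK75 (-0.63), and EPCAM of epithelial cells was higher with STA9090+BGT226 (1.25). These marker sums are over unscaled library totals. The CPM of the tubulin genes that follow are scaled by TMM factors, which ran from 0.903 to 1.13.

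With STA9090 alone no tubulin mRNA passed the test, where 2.84% of all genes did, and nearly the whole family was lower with BGT226. With PIK75 TUBB4A was far lower and TUBB2A less so, while TUBA1B, TUBB and TUBB4B, the abundant isotypes, did not pass the test. A gene is called here when the adjusted p is under 0.05 (edgeR's quasi-likelihood F-test over all 15787 genes, Benjamini-Hochberg adjustment). STA9090 called 0 of the 10 members, by edgeR and by DESeq2, with 0 at an unadjusted p under 0.05 in edgeR, which 18.4% of all genes passed. PIK75 called 2 lower, BGT226 8 lower, STA9090+PIK75 4 lower and 1 higher, and STA9090+BGT226 8 lower and 1 higher, each against untreated cells. Over all genes STA9090 called 2.84% in either direction by edgeR and 3.95% by DESeq2. PIK75 called 8.49% of genes higher and 10.2% lower, BGT226 12.8% higher and 15.7% lower, STA9090+PIK75 18.3% higher and 20.1% lower, and STA9090+BGT226 19.4% higher and 20.4% lower. The median log2 fold change of the 10 members was 0.02 with STA9090, -0.08 with PIK75, -0.54 with BGT226, -0.27 with STA9090+PIK75 and -0.76 with STA9090+BGT226, beside medians over all genes between 0.00 and 0.03. The members summed to 4977 ± 543 CPM with STA9090, 4389 ± 240 with PIK75, 3155 ± 97.8 with BGT226, 4122 ± 161 with STA9090+PIK75 and 2675 ± 81.2 with STA9090+BGT226, against 4758 ± 574 in untreated cells (SD, n = 3). Every BGT226 and STA9090+BGT226 library had a lower sum than every untreated library. Taken gene by gene, treated and untreated libraries lay apart with no overlap for 19.8% of all genes with STA9090 and 32.2% with PIK75. The shares were 44.9% with BGT226, 48.1% with STA9090+PIK75 and 50% with STA9090+BGT226. Of the 10 members, 0, 4, 8, 7 and 8 lay apart in that order of treatments.

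**Figure D1:**
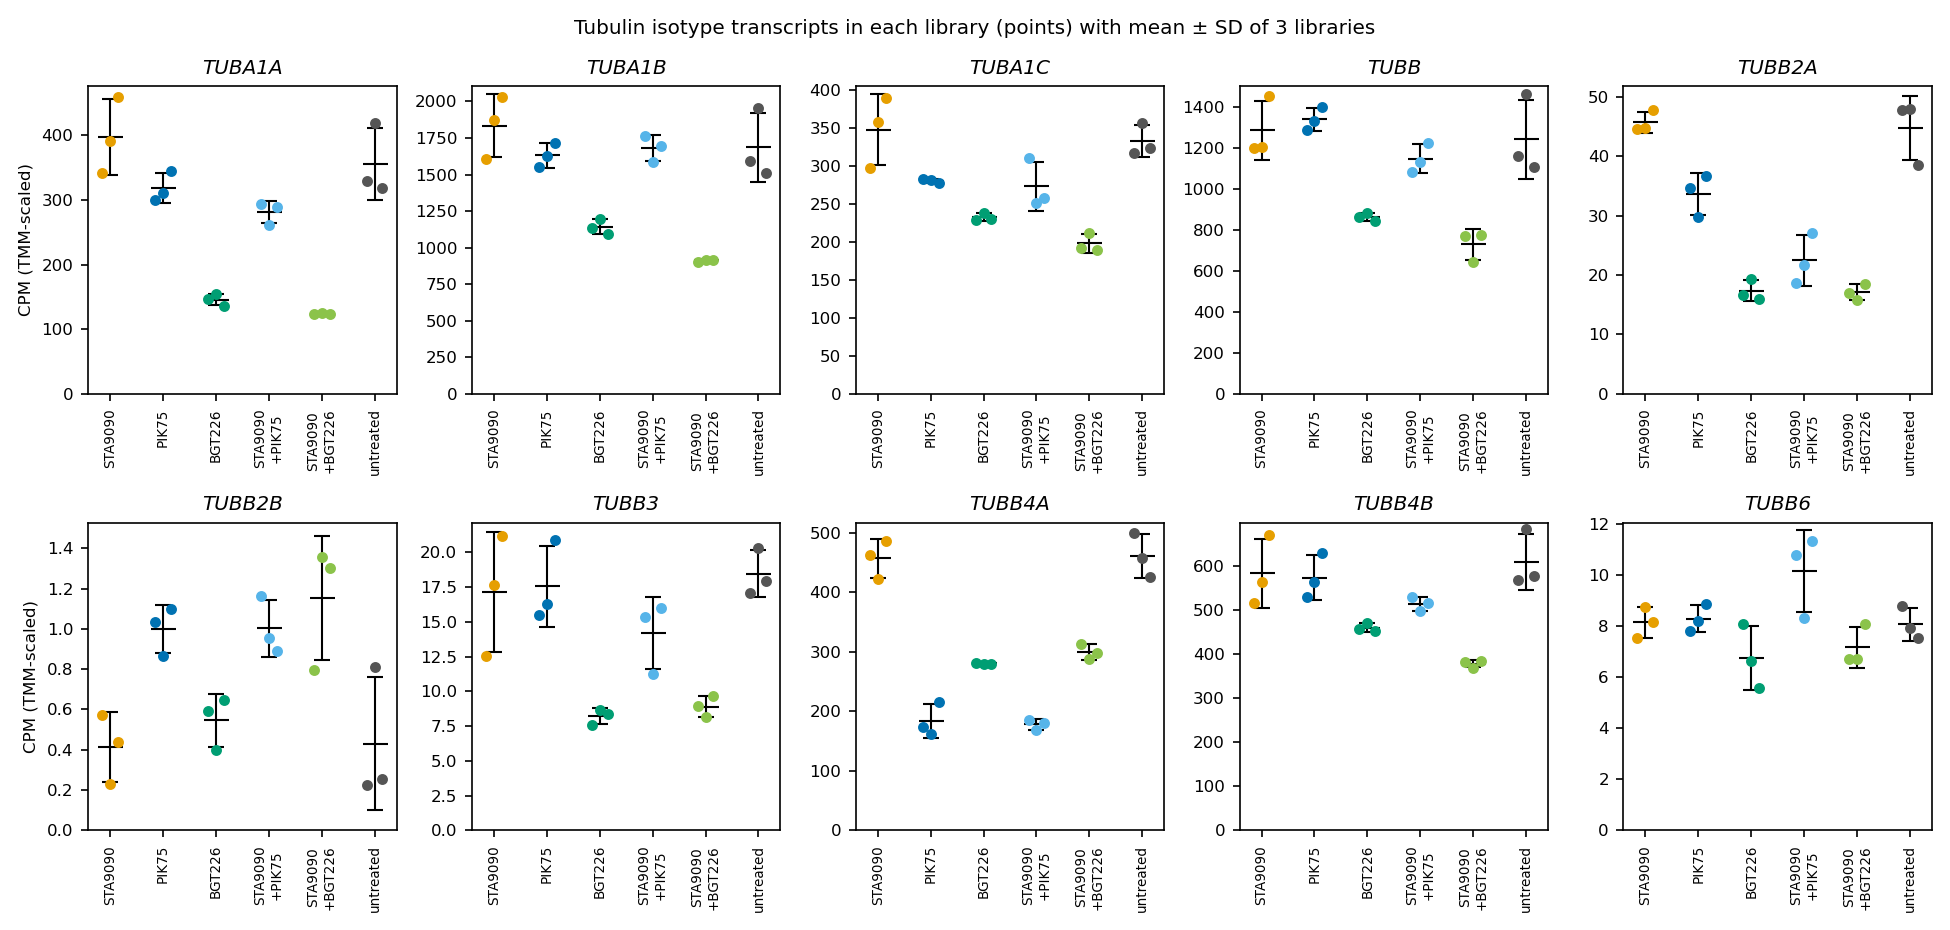
Level of each tubulin isotype in every library (TMM-scaled CPM, axes from 0), with points for the 3 libraries of a group and bars for the mean ± SD. TUBB4A is lowest in the PIK75 and STA9090+PIK75 libraries, whereas TUBA1A, TUBA1B, TUBA1C, TUBB, TUBB3 and TUBB4B are lowest in BGT226 and STA9090+BGT226 libraries.

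Among the alpha genes, TUBA1A had the widest response. TUBA1A lies on chromosome 12 (hg38, chr12:49184796-49189324, minus strand) beside TUBA1B (chr12:49127782-49131397, minus strand) and TUBA1C (chr12:49188736-49274603, plus strand). TUBA1A had 342, 391 and 459.7 CPM with STA9090, 301, 311 and 345 with PIK75, 147, 154 and 136 with BGT226, 294, 262 and 289 with STA9090+PIK75 and 124, 125 and 124 with STA9090+BGT226, against 329, 419.9 and 318 in untreated cells. The BGT226 and STA9090+BGT226 libraries lay apart from and below all 12 others. The log2 fold change over untreated cells was -1.29 for BGT226 (SE 0.111, edgeR adjusted p = 6.46e-08) and -1.52 for STA9090+BGT226 (SE 0.112, adjusted p = 4.41e-09), which left 40.9% and 34.9% of the untreated level. With PIK75 alone it was -0.16 (SE 0.109, adjusted p = 0.353). With STA9090+PIK75 it was -0.34 (SE 0.109, adjusted p = 0.0193), and that call was lost without untreated replicate 2 (-0.20, adjusted p = 0.144) or without STA9090+PIK75 replicate 2 (-0.29, adjusted p = 0.086). In order of mean level the groups ran STA9090, untreated, PIK75, STA9090+PIK75, BGT226 and STA9090+BGT226. Of the neighbours in that order, STA9090 over untreated (0.16, SE 0.109), PIK75 over untreated, STA9090+PIK75 over PIK75 (-0.18, SE 0.109) and STA9090+BGT226 over BGT226 (-0.23, SE 0.11, adjusted p = 0.305) did not pass, and the widest gap lay between STA9090+PIK75 and BGT226 libraries.

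TUBA1B, the most abundant alpha isotype, had 1606, 1870 and 2029 CPM with STA9090, 1549, 1628 and 1719 with PIK75, 1136, 1196 and 1093 with BGT226, 1765, 1584 and 1694 with STA9090+PIK75 and 903, 915 and 919 with STA9090+BGT226, against 1595, 1955 and 1508 in untreated cells. It was lower with BGT226 (log2 fold change -0.56, SE 0.106, edgeR adjusted p = 0.000488) and with STA9090+BGT226 (-0.89, SE 0.107, adjusted p = 2.04e-06), and those 6 libraries lay below all others. With PIK75 and STA9090+PIK75 the values were -0.05 and 0.00, with SE of 0.106 each. TUBA1C, another broadly expressed alpha isotype, ran from 228 to 238 CPM with BGT226 and from 189 to 212 with STA9090+BGT226, below the 316.8 to 356 of untreated cells. Its log2 fold changes were -0.52 for BGT226 (SE 0.0978, edgeR adjusted p = 0.000491) and -0.75 for STA9090+BGT226 (SE 0.0981, adjusted p = 5.85e-06). With PIK75 TUBA1C had 282, 281 and 277 CPM, below each untreated library, but the change of -0.25 did not pass (SE 0.0975, adjusted p = 0.0854), except by DESeq2 (-0.24, adjusted p = 0.0459). With STA9090+PIK75 it had 309.6, 252 and 258 CPM and a change of -0.28 that passed (SE 0.0976, adjusted p = 0.0262). This call was lost without untreated replicate 2 (adjusted p = 0.0962), STA9090+PIK75 replicate 2 (adjusted p = 0.119) or STA9090+PIK75 replicate 3 (adjusted p = 0.104), and when only those groups were fitted (adjusted p = 0.0572). Summed as near copies, the 3 TUBA1 genes changed by -0.65 with BGT226 (adjusted p = 0.000138), -0.96 with STA9090+BGT226 (adjusted p = 8.16e-07) and -0.09 with STA9090+PIK75 (adjusted p = 0.557), so the TUBA1A and TUBA1C calls for STA9090+PIK75 were lost in the sum. The sum is mostly TUBA1B, which was at 0.00 with STA9090+PIK75, so it cannot decide whether TUBA1A and TUBA1C changed.

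TUBB4A, a beta isotype known from brain and from leukodystrophies when mutated, was the member most altered by PIK75. It lies at chr19:6494319-6502848 (hg38, minus strand). TUBB4A had 462, 422 and 485 CPM with STA9090, 174, 162 and 216 with PIK75, 282, 280 and 279 with BGT226, 186, 168 and 179 with STA9090+PIK75 and 313, 288 and 297 with STA9090+BGT226, against 499.6, 457 and 425 in untreated cells. The 18 libraries fell into 3 levels with no overlap: STA9090 with untreated libraries at the top, both BGT226 groups in the middle and both PIK75 groups at the bottom. Relative to untreated cells the level was 40% with PIK75 (log2 fold change -1.32, SE 0.0992, edgeR adjusted p = 1.41e-08), 60.9% with BGT226 (-0.72, SE 0.0978, adjusted p = 1.73e-05), 38.6% with STA9090+PIK75 (-1.37, SE 0.0993, adjusted p = 1.94e-09) and 65% with STA9090+BGT226 (-0.62, SE 0.0977, adjusted p = 4.33e-05). Within each level the neighbours did not pass: STA9090 over untreated was -0.01 (SE 0.0972), STA9090+BGT226 over BGT226 was 0.09 (SE 0.0975) and STA9090+PIK75 over PIK75 was -0.05 (SE 0.098). These 4 calls against untreated cells held under every alternative processing tried, with a PIK75 value between -1.46 and -1.24.

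TUBB, the ubiquitous beta isotype at chr6:30720201-30725426 (plus strand), did not follow TUBB4A. It had 1201, 1206 and 1453 CPM with STA9090, 1289, 1332 and 1399 with PIK75, 865, 884 and 842 with BGT226, 1085, 1132 and 1225 with STA9090+PIK75 and 770, 642 and 777 with STA9090+BGT226, against 1159, 1462 and 1107 in untreated cells. The PIK75 libraries lay inside the untreated range, and the BGT226 and STA9090+BGT226 libraries lay below it. TUBB changed by 0.11 with PIK75 (SE 0.113, edgeR adjusted p = 0.559), -0.53 with BGT226 (SE 0.113, adjusted p = 0.00157) and -0.77 with STA9090+BGT226 (SE 0.114, adjusted p = 2.28e-05). TUBB4B, at chr9:137241213-137243707 (plus strand), also a broadly expressed isotype and one found in cilia, ran from 451 to 470.4 CPM with BGT226 and from 368 to 383 with STA9090+BGT226, below the 567 to 682 of untreated cells. Its changes were -0.41 for BGT226 (SE 0.101, edgeR adjusted p = 0.00467) and -0.69 for STA9090+BGT226 (SE 0.101, adjusted p = 2.02e-05), while PIK75 gave -0.09 and STA9090+PIK75 -0.25 (SE 0.101, adjusted p = 0.0591). That last value passed by DESeq2 (adjusted p = 0.0198) and with the 50 most counted genes left out (adjusted p = 0.0263).

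TUBB2A, a beta isotype abundant in neurons, lies at chr6:3153669-3157526 (minus strand). It had 44.5, 44.9 and 47.8 CPM with STA9090, 34.6, 29.8 and 36.7 with PIK75, 16.7, 19.4 and 16 with BGT226, 18.7, 21.6 and 27.2 with STA9090+PIK75 and 16.9, 15.8 and 18.6 with STA9090+BGT226, against 47.7, 47.9 and 38.5 in untreated cells. All 3 PIK75 libraries lay under the untreated range, and the STA9090+PIK75 and both BGT226 groups lay lower still. The log2 fold change was -0.41 with PIK75 (SE 0.114, edgeR adjusted p = 0.0156), -1.37 with BGT226 (SE 0.121, adjusted p = 8.04e-08), -0.99 with STA9090+PIK75 (SE 0.118, adjusted p = 1.62e-06) and -1.38 with STA9090+BGT226 (SE 0.12, adjusted p = 3.56e-08). The PIK75 call was lost without untreated replicate 1 (adjusted p = 0.0638), untreated replicate 2 (adjusted p = 0.0587) or PIK75 replicate 2 (adjusted p = 0.0832). Its near copy TUBB2B, at chr6:3224261-3231730 (minus strand), was barely detected, with 3.14 to 22.5 expected counts a library and 0.227 to 1.36 CPM. TUBB2B was at 1.14 with PIK75 (SE 0.431, adjusted p = 0.0704), and passed without untreated replicate 2 (2.02, adjusted p = 0.00848). It passed as higher with STA9090+PIK75 (log2 fold change 1.14, SE 0.431, adjusted p = 0.0423) and with STA9090+BGT226 (1.36, SE 0.415, adjusted p = 0.0131), and untreated replicate 2 alone carried 0.811 CPM against 0.227 and 0.254 in the other untreated libraries. Without that library the TUBB2B values were 2.01 and 2.23. The first call was lost without any other library of its groups (adjusted p = 0.0608 to 0.174). It was also lost by DESeq2 (adjusted p = 0.0883), with no low-count filter (adjusted p = 0.0896), with only those groups fitted (adjusted p = 0.0661) and with the replicate block (adjusted p = 0.0566). The second was lost without untreated replicate 1 (adjusted p = 0.0762), untreated replicate 3 (adjusted p = 0.0652) or STA9090+BGT226 replicate 3 (adjusted p = 0.0535). The sum of TUBB2A and TUBB2B fell with both combinations, by 0.94 and 1.32 on the log2 scale.

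The remaining beta members were of low level. TUBB3, class III beta-tubulin of neurons and of many carcinomas (chr16:89921392-89938761, plus strand), had 12.6, 17.7 and 21.2 CPM with STA9090, 15.5, 16.3 and 20.9 with PIK75, 7.59, 8.69 and 8.39 with BGT226, 15.4, 11.3 and 16 with STA9090+PIK75 and 8.93, 8.15 and 9.63 with STA9090+BGT226, against 17.1, 20.4 and 17.9 in untreated cells. Both BGT226 groups lay below every other library. TUBB3 changed by -1.16 with BGT226 (SE 0.168, edgeR adjusted p = 3.38e-05) and -1.05 with STA9090+BGT226 (SE 0.166, adjusted p = 4.84e-05), against -0.08 with PIK75 (SE 0.156) and -0.38 with STA9090+PIK75 (SE 0.159, adjusted p = 0.0628). The STA9090+PIK75 value passed with no low-count filter (adjusted p = 0.00598), with only those groups fitted (adjusted p = 0.0368), with the replicate block (adjusted p = 0.0369) and without STA9090+PIK75 replicate 3 (adjusted p = 0.049). Adding the counts of its read-through gene, between 0.35 and 56.5 a library, changed no TUBB3 call but gave -0.69 with STA9090+BGT226 (adjusted p = 0.00133). TUBB6, at chr18:12307669-12344320 (plus strand), ran from 5.57 to 11.3 CPM over all libraries and passed against untreated cells with none of the 5 treatments. Its largest change was 0.33 with STA9090+PIK75 (SE 0.142, adjusted p = 0.0767), and it passed without STA9090+PIK75 replicate 2 (0.45, adjusted p = 0.0236).

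**Figure D2:**
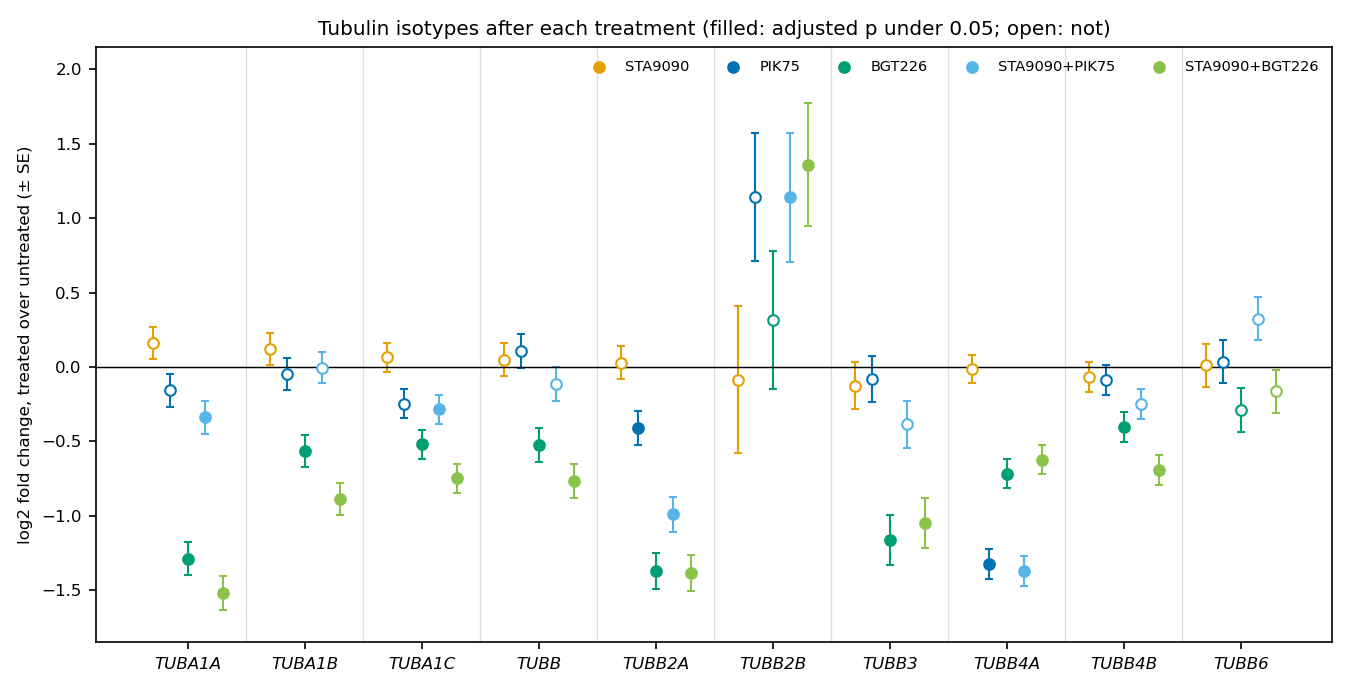
Log2 fold change over untreated cells (± SE, edgeR) for each isotype and treatment, with filled points for adjusted p under 0.05. PIK75 and STA9090+PIK75 points are lowest at TUBB4A (-1.32 and -1.37), BGT226 and STA9090+BGT226 points are low at TUBA1A (-1.29 and -1.52), TUBB2A (-1.37 and -1.38) and TUBB3 (-1.16 and -1.05), and STA9090 points stay between -0.13 and 0.16.

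PIK75 and BGT226, both PI3K inhibitors, were compared directly, 20 nM and 48 h being stated for each. PIK75 over BGT226 called 7 members higher and 1 lower, where 16.5% of all genes were higher and 15.5% lower. TUBA1A averaged 319 ± 23.3 CPM with PIK75 and 146 ± 8.8 with BGT226 (SD, n = 3), a log2 fold change of 1.13 (SE 0.111, edgeR adjusted p = 1.95e-07). TUBB3 differed by 1.08 (SE 0.17, adjusted p = 5.82e-05), TUBB2A by 0.96 (SE 0.123, adjusted p = 5.4e-06), TUBB by 0.63 (SE 0.113, adjusted p = 0.000233) and TUBA1B by 0.52 (SE 0.106, adjusted p = 0.000871). TUBB4A ran the other way, at 184 ± 28.5 CPM with PIK75 and 280.2 ± 1.33 with BGT226, a log2 fold change of -0.61 (SE 0.0981, adjusted p = 8.11e-05). The 3 TUBA1 genes summed were higher with PIK75 by 0.55 (adjusted p = 0.000488). TUBB4B and TUBA1C passed at 0.32 (adjusted p = 0.0201) and 0.27 (adjusted p = 0.0383). The TUBB4B call was lost without PIK75 replicate 3 (adjusted p = 0.1), BGT226 replicate 1 (adjusted p = 0.0622) or BGT226 replicate 3 (adjusted p = 0.0781), and the TUBA1C call without any of the 6 libraries (adjusted p = 0.0668 to 0.111). TUBB6 (0.33, SE 0.148) and TUBB2B (0.83, SE 0.409) did not pass, though TUBB6 did without BGT226 replicate 1 (0.46, adjusted p = 0.0358).

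With STA9090 present TUBB4A was again the member on the lower side, and TUBB6 joined the 7 on the higher side. STA9090+PIK75 over STA9090+BGT226 called 8 members higher and 1 lower, where 20.9% of all genes were higher and 22.4% lower. TUBA1A averaged 282 ± 17.5 CPM with STA9090+PIK75 and 124 ± 0.601 with STA9090+BGT226 (log2 fold change 1.181, SE 0.111, edgeR adjusted p = 5.07e-08), and TUBA1B 1681 ± 91.2 and 912 ± 7.87 (0.88, SE 0.107, adjusted p = 1.37e-06). TUBB4A averaged 178 ± 8.83 CPM with STA9090+PIK75 and 299 ± 12.9 with STA9090+BGT226 (-0.75, SE 0.0982, adjusted p = 3.72e-06). TUBB3, TUBB, TUBB6, TUBA1C, TUBB4B and TUBB2A were higher with STA9090+PIK75 by 0.40 to 0.66, TUBB3 by 0.44 when summed with its read-through gene. The TUBB2A difference of 0.40 (adjusted p = 0.015) was lost without STA9090+PIK75 replicate 3 (0.25, adjusted p = 0.126) or STA9090+BGT226 replicate 2 (0.35, adjusted p = 0.0609).

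**Figure D3:**
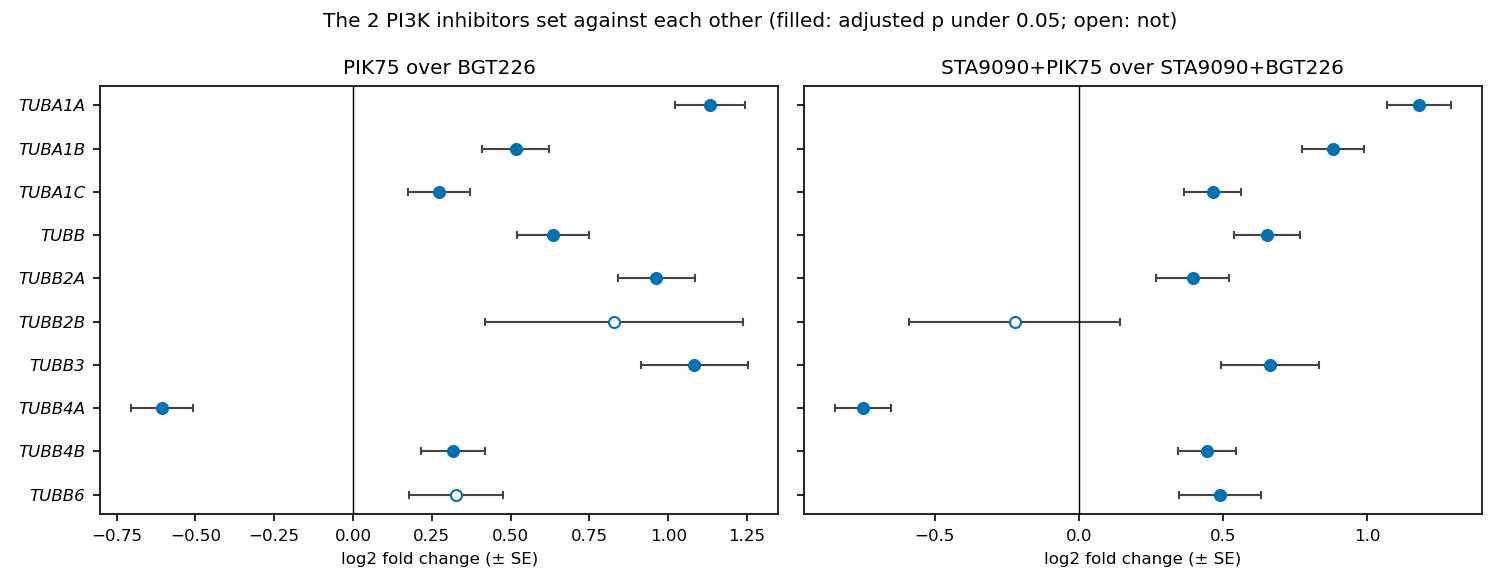
Log2 fold change (± SE, edgeR) of PIK75 over BGT226 and of STA9090+PIK75 over STA9090+BGT226 for each isotype, with filled points for adjusted p under 0.05. TUBB4A lies left of 0 in both panels (-0.61 and -0.75), and TUBA1A lies farthest right (1.13 and 1.181).

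Each combination was also set against its parts. Against PIK75 alone, STA9090+PIK75 called 1 member, TUBB2A, lower, where 11.3% of genes were higher and 14% lower. TUBB2A averaged 22.5 ± 4.31 CPM with STA9090+PIK75 and 33.7 ± 3.56 with PIK75 (log2 fold change -0.58, SE 0.12, edgeR adjusted p = 0.00133). Against STA9090 alone, STA9090+PIK75 called 4 members lower and 1 higher, where 17.7% of genes were higher and 19.8% lower. The lower ones were TUBB4A (-1.36), TUBB2A (-1.02), TUBA1A (-0.50) and TUBA1C (-0.35), and the higher one was TUBB2B (1.22, adjusted p = 0.0322). The TUBA1 genes summed, mostly TUBA1B (-0.13 by itself), gave -0.20 there (adjusted p = 0.157). The TUBB2B call was lost without STA9090 replicate 2 (adjusted p = 0.133), STA9090 replicate 3 (adjusted p = 0.0624), STA9090+PIK75 replicate 1 (adjusted p = 0.0944) or STA9090+PIK75 replicate 2 (adjusted p = 0.0637). That TUBB2B call was also lost by DESeq2 (adjusted p = 0.0687) and with no low-count filter (adjusted p = 0.0633). TUBB3 passed there without STA9090 replicate 1 (-0.45, adjusted p = 0.0253) and TUBB6 without STA9090+PIK75 replicate 2 (0.44, adjusted p = 0.0278).

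Against BGT226 alone, STA9090+BGT226 called 0 of the 10 members, where edgeR called 2.69% of genes in either direction. At an unadjusted p under 0.05 edgeR passed 5 members, TUBA1B, TUBB4B, TUBA1C, TUBB and TUBB2B, where 16.5% of all genes passed, and DESeq2 called 2 after adjustment, with 3.69% of all genes called. TUBA1B averaged 912 ± 7.87 CPM with STA9090+BGT226 and 1141 ± 52.1 with BGT226 (-0.32, SE 0.106, edgeR adjusted p = 0.108, DESeq2 adjusted p = 0.00673). TUBB4B averaged 377 ± 7.88 CPM with STA9090+BGT226 and 459.8 ± 9.74 with BGT226 (-0.28, SE 0.101, edgeR adjusted p = 0.143, DESeq2 adjusted p = 0.02). Against STA9090 alone, STA9090+BGT226 called 8 members lower and 1 higher, where 19.5% of genes were higher and 20.9% lower. Those 8 ran from -1.68 for TUBA1A to -0.61 for TUBB4A, and TUBB2B was at 1.45, a call lost without STA9090 replicate 2 (adjusted p = 0.0536).

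As an interaction, a combination is set against the sum of its single effects on the log2 scale. For STA9090 with PIK75, 1 member was called, TUBB2A, where 3.54% of genes were higher and 5.73% lower. The TUBB2A interaction was -0.61 (SE 0.164, edgeR adjusted p = 0.0244): STA9090+PIK75 gave -0.99, whereas PIK75 gave -0.41 and STA9090 0.03. It was lost without untreated replicate 3, PIK75 replicate 1, PIK75 replicate 3, STA9090+PIK75 replicate 1 or STA9090+PIK75 replicate 2 (adjusted p = 0.0544 to 0.0738), and when only those groups were fitted (adjusted p = 0.0567). TUBB4A had an interaction of -0.04 (SE 0.138). TUBA1A was at -0.34 (adjusted p = 0.186) and passed without untreated replicate 2 (-0.48, adjusted p = 0.0406). For STA9090 with BGT226, edgeR called 0 members and 0.00633% of genes, 1 gene of 15787. At an unadjusted p under 0.05 there were 3 members, TUBA1B (-0.45), TUBA1A (-0.39) and TUBA1C (-0.29), where 9.44% of all genes passed, and DESeq2 called TUBA1B (-0.46, adjusted p = 0.049), with 0.222% of all genes called.

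Per length, the isotypes made up unequal parts of the pool, and the parts shifted with the inhibitor. Shares are CPM per kilobase of annotated exon, as a percentage of the summed members of the same class. Among the beta members TUBB4A made up 16.1 ± 1.2% with STA9090, 7.06 ± 0.685% with PIK75, 14.2 ± 0.277% with BGT226, 7.84 ± 0.417% with STA9090+PIK75 and 17.4 ± 0.662% with STA9090+BGT226, against 16.2 ± 1.98% in untreated cells (SD, n = 3). TUBB made up 46.5 ± 0.396%, 53.3 ± 1.34%, 45.1 ± 0.168%, 52.1 ± 1.76% and 43.7 ± 1.99% in the treated groups in the same order, against 44.8 ± 1.97% in untreated cells. Both PIK75 groups thus lay apart from the other 12 libraries in the shares of TUBB4A and of TUBB, and the BGT226 groups, where most members were lower together, did not. TUBB4B held between 31.9 and 38.9% in every library, and TUBB3, TUBB6 and TUBB2B stayed under 1% of the beta pool by exon length. By the length of the principal transcript TUBB3 averaged 1.03% with PIK75 and reached 1.14% in PIK75 replicate 3.

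TUBB2A made up 3.23 ± 0.206% of the beta pool with STA9090, 2.6 ± 0.238% with PIK75, 1.76 ± 0.144% with BGT226, 1.98 ± 0.314% with STA9090+PIK75 and 1.99 ± 0.0933% with STA9090+BGT226, against 3.15 ± 0.298% in untreated cells (SD, n = 3). Of the alpha pool, TUBA1B made up 72.1 to 77.6% in every library. By the length of the principal transcript TUBA1B averaged 77.7% in untreated cells and 82% with BGT226. TUBA1A made up 16.5 ± 0.564% with STA9090, 15.3 ± 0.402% with PIK75, 10.3 ± 0.21% with BGT226, 13.5 ± 0.268% with STA9090+PIK75 and 10.9 ± 0.0844% with STA9090+BGT226, against 16 ± 0.364% in untreated cells. The summed alpha level was 412 ± 18.1 CPM per kilobase with BGT226 and 334 ± 3.87 with STA9090+BGT226, against 648 ± 86.9 in untreated cells, and the summed beta level was 569.5 ± 11.9 with BGT226 and 496.5 ± 30 with STA9090+BGT226, against 824 ± 89.7. The ratio of beta to alpha was 1.38 ± 0.0315 with BGT226, 1.49 ± 0.105 with STA9090+BGT226 and 1.07 ± 0.0662 with STA9090+PIK75, against 1.27 ± 0.0315 in untreated cells. By the length of the principal transcript alone the ratios were 0.858, 0.927, 0.663 and 0.798 in those groups, so the order of the groups was the same but not which class was the larger.

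**Figure D4:**
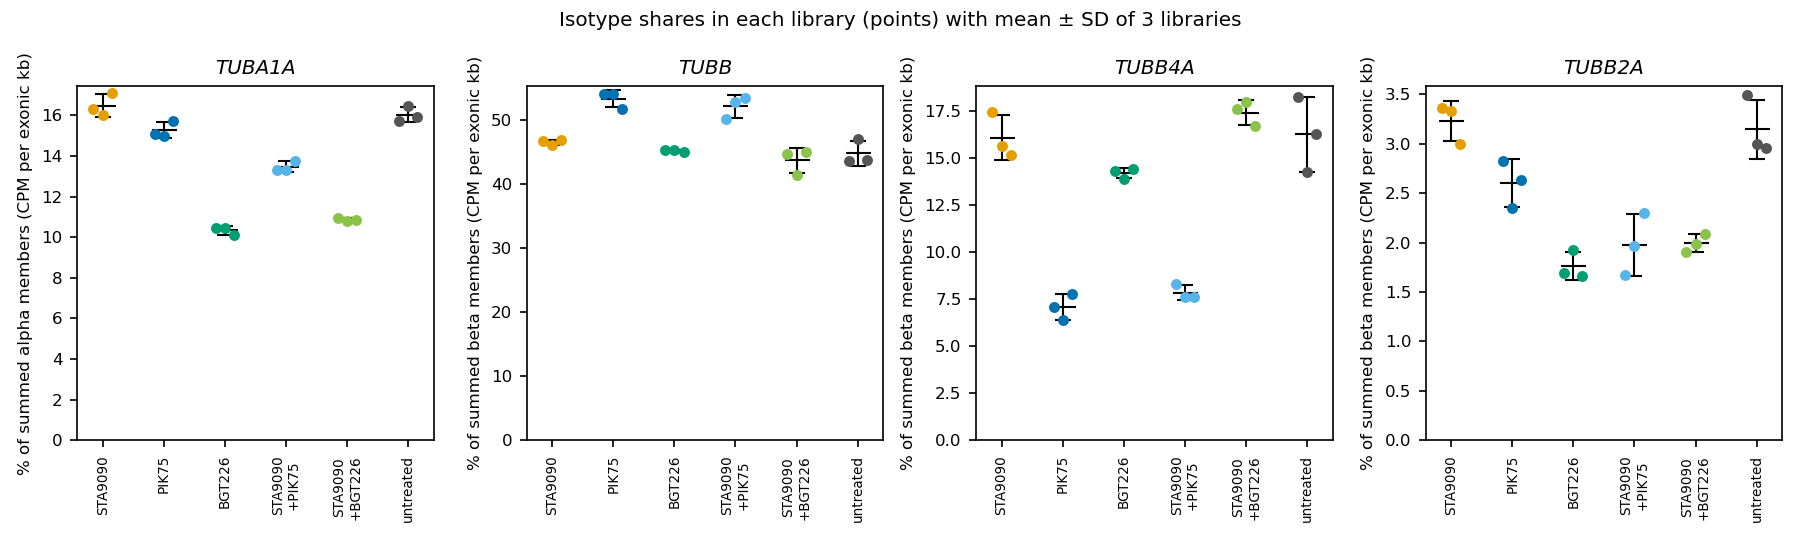
Share of TUBA1A among the alpha members and of TUBB, TUBB4A and TUBB2A among the beta members (percent of summed CPM per exonic kilobase, axes from 0), with points for libraries and bars for the mean ± SD. PIK75 and STA9090+PIK75 libraries stand apart at TUBB (above 50%) and TUBB4A (6.38 to 8.32%), and BGT226 and STA9090+BGT226 libraries at TUBA1A (10.1 to 11%).

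In some libraries nearly all members lay on one side of their group's mean. Of the 9 members above 5 CPM, all 9 were above their own group's mean in STA9090 replicate 3 and none was in untreated replicate 3, while untreated replicate 2 had 7 of 9 above it. STA9090+PIK75 replicate 2 had none of 9 above its group's mean. STA9090 replicate 3 had the lowest TMM factor of the 18 libraries (0.903) and untreated replicate 3 the highest (1.13). Of unscaled totals the members made up 0.451%, 0.516% and 0.489% in untreated replicates 1, 2 and 3. The part of the scaling in these deviations was not tested, and the same was not counted over all genes.

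Over the 18 libraries, the protein-coding genes most like the 3 members of widest range were named by Pearson's r of log2 CPM among 9855 genes, a description over points that share 6 groups. TUBA1A was most like SAE1 (a subunit of the SUMO-activating enzyme, r = 0.984), TUBG1 (gamma-tubulin, r = 0.984) and TPI1 (a glycolytic enzyme, r = 0.983). TUBB2A was most like MRAS (a RAS-family GTPase, r = 0.975), NUP188 (a nuclear pore protein, r = 0.974) and LSS (lanosterol synthase of cholesterol synthesis, r = 0.973). TUBB4A was most like SPTAN1 (alpha-spectrin of the membrane skeleton, r = 0.97) and THRAP3 (an RNA-processing factor, r = 0.968).

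The upstream regions of the pair that was lower with PIK75 are shown next, 250 bases before a RefSeq start on GRCh38.p14, with capitals for matches on either strand to TATAA (the TATA box), CCAAT (the CCAAT box), GGGCGG (the GC box), CACGTG (an E-box), GTAAACA (the forkhead motif) and GAANNTTC or TTCNNGAA (cores of the heat shock element). All 10 members matched the promoter table, with 16 starts. TUBB4A has 2 starts there. The region printed is that of the first, chr19:6502849-6503098 (minus strand), with 2 CCAAT matches, and the second, chr19:6502310-6502559, holds no CCAAT but 3 GGGCGG and 1 CACGTG matches. For TUBB2A, with 1 start, the region is chr6:3157545-3157794 (minus strand), with 1 TATAA and 5 GGGCGG matches.
TUBB4A: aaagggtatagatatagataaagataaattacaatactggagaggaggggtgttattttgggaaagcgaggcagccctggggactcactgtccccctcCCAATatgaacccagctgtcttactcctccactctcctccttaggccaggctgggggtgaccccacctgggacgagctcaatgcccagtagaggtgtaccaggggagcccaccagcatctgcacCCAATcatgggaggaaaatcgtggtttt
TUBB2A: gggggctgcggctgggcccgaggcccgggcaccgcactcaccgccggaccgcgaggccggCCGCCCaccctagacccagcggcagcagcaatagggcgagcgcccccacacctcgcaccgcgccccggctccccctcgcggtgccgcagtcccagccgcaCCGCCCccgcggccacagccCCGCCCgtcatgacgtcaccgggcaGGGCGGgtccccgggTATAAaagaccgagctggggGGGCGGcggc
Over the 16 member starts, CCAAT was found at 10, GGGCGG at 9, TATAA at 4, CACGTG at 3, GAANNTTC at 2 and GTAAACA and TTCNNGAA at 0. Both GAANNTTC starts are of TUBA1C, whose first 2 regions overlap, and the match is the same site counted at each. A CCAAT match of TUBA1C is likewise counted at both of these starts. Over 35116 starts of all genes, 32% held CCAAT, 42.6% GGGCGG, 18.9% TATAA, 6.34% CACGTG, 5.78% GAANNTTC, 2.98% GTAAACA and 6.62% TTCNNGAA. A match is a run of letters and no evidence that a factor binds there.

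The genes around tubulin were described by lists, which like the members were drawn up with earlier results known. Their counts stand beside the shares of all genes called against untreated cells. PIK75 called 8.49% higher and 10.2% lower, and BGT226 12.8% and 15.7%. STA9090+PIK75 called 18.3% higher and 20.1% lower, and STA9090+BGT226 19.4% and 20.4%. Some of the list counts that follow were near or below these shares and others were above them. Among the other tubulin genes 7 of 13 in the table could be tested. TUBG1, the gamma-tubulin from which microtubules nucleate, fell with BGT226 (log2 fold change -0.96, SE 0.0844, edgeR adjusted p = 7.58e-08) and STA9090+BGT226 (-1.12, SE 0.0848, adjusted p = 6.52e-09), and was at -0.08 with PIK75 and -0.13 with STA9090+PIK75. Its near copy TUBG2 rose with STA9090+BGT226 (0.85, adjusted p = 0.000366) and STA9090+PIK75 (0.49, adjusted p = 0.0261). TUBA4A, an alpha isotype outside the TUBA1 group, fell with PIK75 (-0.65, adjusted p = 0.0102), BGT226 (-0.87, adjusted p = 0.000645), STA9090+PIK75 (-0.58, adjusted p = 0.00952) and STA9090+BGT226 (-0.62, adjusted p = 0.00571). TUBB8, a beta isotype of oocytes at 7 to 44 counts a library here, fell with STA9090+PIK75 (-1.56, adjusted p = 0.00184).

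Most prefoldin and CCT subunits were higher with STA9090+PIK75 and most were lower with STA9090+BGT226. Of 14 prefoldin and CCT subunits, STA9090 called 2 higher and 0 lower (median log2 fold change 0.25), PIK75 1 lower (-0.09), BGT226 8 lower (-0.39), STA9090+PIK75 9 higher (0.39) and STA9090+BGT226 9 lower (-0.35), each with no call in the other direction, beside all-gene medians between 0.00 and 0.03. CCT5 fell with BGT226 (-0.66, SE 0.0709, edgeR adjusted p = 9.95e-07) and STA9090+BGT226 (-0.64, SE 0.0708, adjusted p = 6.94e-07) and rose with STA9090+PIK75 (0.30, SE 0.0702, adjusted p = 0.00193). CCT6A rose with STA9090 (0.29, adjusted p = 0.0326) and STA9090+PIK75 (0.50, adjusted p = 1.59e-05) and fell with BGT226 (-0.36, adjusted p = 0.000938) and STA9090+BGT226 (-0.20, adjusted p = 0.0289). CCT2 rose with STA9090+PIK75 (0.44, adjusted p = 4.11e-05) and fell with BGT226 (-0.43, adjusted p = 0.000103) and STA9090+BGT226 (-0.33, adjusted p = 0.000719). CCT7 fell with PIK75 (-0.25, adjusted p = 0.0268), BGT226 (-0.69, adjusted p = 2.06e-06) and STA9090+BGT226 (-0.70, adjusted p = 9.12e-07) and was at 0.00 with STA9090+PIK75, where VBP1 and PFDN2, prefoldin subunits, were at -0.13 and -0.16 without passing. STA9090+PIK75 over STA9090+BGT226 called 11 of the 14 higher and none lower, where 20.9% of all genes were higher and 22.4% lower.

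Of 7 tubulin folding cofactors and their relatives, BGT226 called 3 lower (median -0.28), STA9090+BGT226 3 lower and 1 higher (-0.30), STA9090+PIK75 1 lower and 2 higher (0.04) and PIK75 1 lower and 1 higher (-0.05). TBCD, which captures beta-tubulin and helps join it to alpha, fell with STA9090+PIK75 (-0.95, edgeR adjusted p = 8.26e-08), BGT226 (-0.28, adjusted p = 0.023) and STA9090+BGT226 (-0.30, adjusted p = 0.00935). TBCA, a beta-tubulin chaperone, fell with PIK75 (-0.47, adjusted p = 0.012) and BGT226 (-0.48, adjusted p = 0.00653). TBCE, which binds alpha-tubulin, fell with BGT226 (-0.43, adjusted p = 0.0205), and TBCEL, its relative, rose with STA9090+PIK75 (0.45, adjusted p = 0.00146) and STA9090+BGT226 (0.36, adjusted p = 0.00652).

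Of 12 genes of the tubulin mRNA decay route, TTC5, SCAPER and CCR4-NOT subunits, PIK75 called 2 lower and 0 higher (median -0.01), BGT226 2 lower and 1 higher (-0.06), STA9090+PIK75 1 lower and 4 higher (0.14) and STA9090+BGT226 2 lower and 3 higher (-0.02). CNOT11 fell with PIK75 (-0.34), BGT226 (-0.41), STA9090+PIK75 (-0.46) and STA9090+BGT226 (-0.78, edgeR adjusted p = 6.69e-07). CNOT9 fell with BGT226 (-0.45, adjusted p = 0.000918) and STA9090+BGT226 (-0.47, adjusted p = 0.000342), CNOT6L, a deadenylase, fell with PIK75 (-0.31, adjusted p = 0.0337) and rose with STA9090+BGT226 (0.43, adjusted p = 0.00146), and CNOT3 rose with STA9090+PIK75 (0.36, adjusted p = 0.00215).

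Of 19 tested enzymes that modify tubulin, mostly on the tails, PIK75 and BGT226 each called 2 lower and 2 higher, STA9090+PIK75 5 lower and 4 higher and STA9090+BGT226 2 lower and 1 higher, with medians between -0.10 and 0.06. These counts are near or below the shares over all genes. Those were 10.2% lower and 8.49% higher with PIK75, 15.7% and 12.8% with BGT226, 20.1% and 18.3% with STA9090+PIK75 and 20.4% and 19.4% with STA9090+BGT226. VASH1, a carboxypeptidase that removes the terminal tyrosine of alpha-tubulin, fell with PIK75 (-0.77, edgeR adjusted p = 1.29e-06), STA9090+PIK75 (-1.47, adjusted p = 1e-10) and STA9090 (-0.33, adjusted p = 0.0286) and was at 0.00 with BGT226. TTLL3, a glycylase, rose with PIK75 (0.38), BGT226 (0.34), STA9090+PIK75 (0.70) and STA9090+BGT226 (0.56, adjusted p = 0.000499). ATAT1, which acetylates alpha-tubulin inside the microtubule, rose with STA9090+PIK75 (0.74, adjusted p = 0.000103), and AGBL5, which removes glutamates, fell with it (-0.50, adjusted p = 0.000184).

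The microtubule-binding proteins were mostly lower where they were called. Of 24 microtubule-associated and end-binding proteins, PIK75 called 6 lower and 0 higher (median -0.10), BGT226 8 lower and 2 higher (-0.19), STA9090+PIK75 11 lower and 1 higher (-0.15) and STA9090+BGT226 10 lower and 3 higher (-0.17). MAP1A, a neuronal lattice-binding protein, fell with PIK75 (-0.82, edgeR adjusted p = 8.58e-06), BGT226 (-1.17, adjusted p = 6.55e-08), STA9090+PIK75 (-0.74) and STA9090+BGT226 (-1.003). MAPT, tau, fell with STA9090 (-0.41, adjusted p = 0.016), PIK75 (-0.57, adjusted p = 8.59e-05), STA9090+PIK75 (-1.48, adjusted p = 1.72e-10) and STA9090+BGT226 (-0.51, adjusted p = 8.48e-05). MAP1B fell with BGT226 (-0.82), STA9090+PIK75 (-1.09) and STA9090+BGT226 (-0.89) and was at -0.02 with PIK75. EML3, a mitotic microtubule binder, fell with STA9090+PIK75 (-1.34, adjusted p = 7.19e-07) and rose with BGT226 (0.35, adjusted p = 0.0464).

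Of 13 destabilising and severing proteins, PIK75 called 2 higher and 0 lower (median 0.10), BGT226 4 lower and 1 higher (-0.15), STA9090+PIK75 2 lower and 5 higher (-0.07) and STA9090+BGT226 4 lower and 2 higher (-0.08). KIF2C, a depolymerising kinesin of mitosis, rose with PIK75 (0.45, edgeR adjusted p = 0.000259) and STA9090+PIK75 (0.75, adjusted p = 1.59e-07) and fell with BGT226 (-0.32, adjusted p = 0.00415) and STA9090+BGT226 (-0.33, adjusted p = 0.0022). STMN1, stathmin, which sequesters dimers, fell with BGT226 (-0.39, adjusted p = 0.000615) and STA9090+BGT226 (-0.62, adjusted p = 2.31e-06). STMN3 fell with STA9090+PIK75 (-0.54, adjusted p = 0.000185) and STA9090+BGT226 (-0.26, adjusted p = 0.0383), and KATNA1, the catalytic subunit of katanin, rose with STA9090+PIK75 (0.50, adjusted p = 0.00078). Of 21 genes of the gamma-tubulin ring complex and augmin, which nucleate and branch microtubules, BGT226 called 7 lower and 1 higher, STA9090+BGT226 6 lower and 2 higher, STA9090+PIK75 2 lower and 3 higher and PIK75 2 lower and 1 higher. The augmin subunits HAUS8 (-0.34 with BGT226 and -0.65 with STA9090+BGT226, adjusted p = 0.00714 and 1.52e-05) and HAUS7 (-0.66 and -0.97, adjusted p = 0.0036 and 8.69e-05) fell with both BGT226 treatments.

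**Figure D5:**
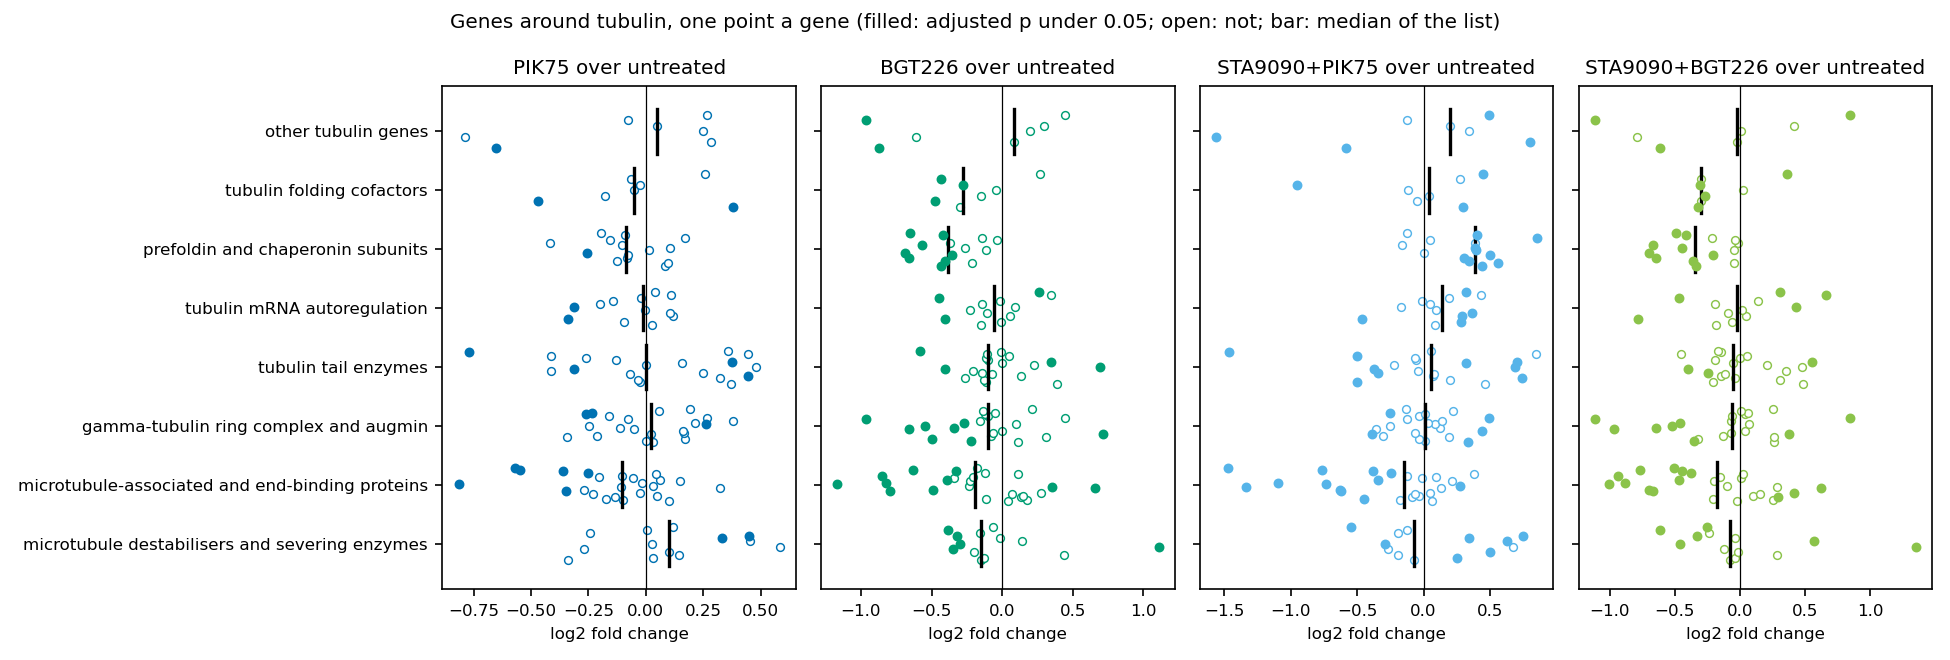
Log2 fold change over untreated cells for every tested gene of 8 lists around tubulin, 1 point a gene (filled for edgeR adjusted p under 0.05), with a bar at each list's median. The prefoldin and chaperonin points lie mostly right of 0 with STA9090+PIK75 (median 0.39) and left of 0 with BGT226 (-0.39) and STA9090+BGT226 (-0.35).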

How the data were processed

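RNA sequencing of 18 NCI-H295R libraries was analysed. Expected counts for each gene came from the authors' single table and carry no scaling. Per the submitters' processing notes, the build is hg38 and the tools are STAR 2.7.0f, RSEM 1.3.1, cutadapt 1.18 and bcl2fastq 2.20. Neither the annotation release nor the strand setting is stated there. The labels' protocols describe stranded total RNA libraries depleted of ribosomal RNA, read as paired ends of 101 bases.

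Expected counts were rounded to whole numbers and genes kept by filterByExpr of edgeR 4.0.16 (R 4.3.3; minimum count 10, minimum total 15), which left 15787. All 18 libraries entered 1 model of group means with TMM scaling, and 13 comparisons were tested by edgeR's quasi-likelihood F-test, adjusted by Benjamini-Hochberg over all genes tested, at 0.05. Log2 fold changes use a prior count of 0.125, and SE is the size of the change over the square root of F. The fitted common dispersion of 0.0112 corresponds to a coefficient of variation of 10.6% between replicates. CPM use TMM-scaled totals, which ran from 10.2 to 21.1 M before scaling, except the marker sums, which use the unscaled totals. The fit was tested on simulated data.

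Positions, lengths and coding sequences are from GENCODE 29, which holds all 10 members, 3 with the same ID version as the table, and promoters from RefSeq (GRCh38.p14). The members and the 10 gene lists were chosen with earlier results of these data known. Named are all members, up to 4 genes a list, those of smallest adjusted p against untreated cells, and the 3 genes most like the 3 members of widest range (mean of at least 5 CPM), of which 1 is not reported here. VBP1 and PFDN2 were named after their values were seen. Alternatives were RLE size factors, no low-count filter, a stricter one (1 CPM in 3 libraries), DESeq2 1.42.0, near copies summed, a block for replicate number, fits of the compared groups alone, dropping the 50 most counted genes and each library left out. TUBB3 summed with its read-through gene and shares by the principal transcript were added after the data were seen.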

Additional observations from a re-analysis of the deposited data

Results flagged for a closer look

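TUBB2A was set apart because the effect of STA9090 differed between cells with and without PIK75, by a test of the difference itself. The interaction was -0.61 on the log2 scale (SE 0.164, edgeR adjusted p = 0.0244). STA9090+PIK75 averaged 22.5 ± 4.31 CPM, PIK75 33.7 ± 3.56 and STA9090 45.7 ± 1.79, against 44.7 ± 5.41 in untreated cells (SD, n = 3). Over the libraries left out in turn and the other settings the value ran from -0.75 to -0.49, and the largest adjusted p was 0.0738. Summed with its near copy TUBB2B it was -0.57 (adjusted p = 0.0286).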

How the results depend on the processing

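Of 57 called member values, 44 kept direction and call under every alternative that gave them a value, among them every TUBB4A call and, TUBB2B aside, every call of BGT226 and STA9090+BGT226 against untreated cells. TUBA1B and TUBB are among the 50 most counted genes and so have no value with those left out. RLE size factors, the stricter filter and the TUBB3 sum changed no call, and no direction of a called value, among 130 values. A direction was counted as reversed only where the value was called in the main fit or in the alternative. The TUBB3 sum moved the uncalled PIK75 value from -0.08 to 0.04. With near copies summed, the 8 values that reversed were all of TUBB2B, which then takes the sum with the far more abundant TUBB2A: -0.39 with PIK75, -1.34 with BGT226, -0.94 with STA9090+PIK75 and -1.32 with STA9090+BGT226 against untreated cells, -0.96 for STA9090+PIK75 and -1.33 for STA9090+BGT226 against STA9090, 0.38 for STA9090+PIK75 against STA9090+BGT226, and -0.57 for the STA9090 by PIK75 interaction. Members called for STA9090+BGT226 against BGT226 numbered 0, but 4 with only those groups fitted and 2 by DESeq2. Over all genes that comparison called 156 higher and 268 lower of 15787, but 526 and 808 of 14911 with only those groups fitted. DESeq2 called 582 of 15787. The STA9090 by PIK75 interaction had 1, but 0 with only those groups fitted, and the STA9090 by BGT226 interaction 0, but 1 by DESeq2. Over all genes the first called 559 higher and 904 lower of 15787, but 294 and 515 of 15433 with only those groups fitted. The second called 1 gene in the main fit and 35 by DESeq2. With each library left out in turn, member calls ran from 1 to 2 for PIK75 (2 with all). They ran from 3 to 4 for STA9090+PIK75 (5 with all) and from 6 to 7 for PIK75 against BGT226 (8 with all). For the STA9090 by PIK75 interaction they ran from 0 to 2. Calls over all genes moved too. Without untreated replicate 1, PIK75 called 853 higher and 1239 lower of 16129, against 1340 and 1607 of 15787 with all. STA9090+PIK75 then called 2395 and 2810, against 2886 and 3170, and the interaction 415 and 605. The cause of these shifts was not tested. Over all genes STA9090 called 183 higher and 265 lower, but 0 and 4 with only those groups fitted.

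Replicate numbers did not pair the libraries: same-numbered deviations from group means correlated between -0.17 and 0.15, and 2 of 18 libraries correlated best with their own number. With the replicate block TUBB2B with STA9090+PIK75 no longer passed (1.14, adjusted p = 0.0566), TUBB3 did (-0.39, adjusted p = 0.0369), and no other member call changed. Low counts limit TUBB2B, TUBB3 and TUBB6, and shared sequence limits the TUBA1 and TUBB2 groups.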
